A study of Mus musculus with 40 samples.

Results

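Adolescent female mice given both oral antibiotics and morphine were compared with adolescents that received neither. All animals were C57BL/6J wild type females, a standard inbred laboratory strain. The treated group drank antibiotics and was injected under the skin with morphine at 15 mg/kg for 5 days, and the control group stayed on water and was injected with saline over the same 5 days. Both groups entered the experiment on postnatal day 25. The comparison used 10 of the 40 libraries of the series, 5 in each group, chosen by the age, drink and injection that the sample labels give. The other 30 libraries come from adolescents given antibiotics with saline or water with morphine, and from the same 4 treatments in adults that started on postnatal day 55. RNA with a polyA tail was sequenced from tissue labelled as brain, and the series title names the medial prefrontal cortex. Which antibiotics were used, and the hour at which tissue was taken, are not given in the labels. Whether the 5 libraries of a group came from separate mice is not stated, so the p-values cover the spread among libraries alone, and that spread may be technical.

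Several gene programmes with known regulators can be read in such tissue. The circadian clock is a feedback loop in which the activators CLOCK and BMAL1 (gene Arntl) drive the Per and Cry repressors and the output factors Dbp, Tef and Hlf through E-box sequences, so its transcripts swing with the hour. Immediate early genes are transcribed within minutes of neuronal firing. Chaperones of the endoplasmic reticulum are switched on by unfolded proteins through the ERSE promoter element, sterol enzymes are switched on by SREBP2 when membrane cholesterol is low, and glucocorticoids raise a set of genes that includes Fkbp5. Morphine acts through opioid receptors, which lower cyclic AMP in neurons.

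Of 17880 genes tested, 1240 were called between the groups at an adjusted p under 0.05 (edgeR quasi-likelihood test with Benjamini-Hochberg adjustment over all genes tested), which is 6.94% of them. Of these, 596 were higher after antibiotics and morphine (3.33% of genes tested) and 644 were lower (3.6%). The differences were mostly small. The median log2 fold change was 0.32 among the genes called higher and -0.39 among those called lower, beside -0.006 over all genes tested, and 81 genes differed by at least 2-fold. In 267 of the 596 genes called higher every treated library lay above every control library, and in 306 of the 644 called lower every treated library lay below. Over all genes tested, called or not, 2.36% lay wholly above and 2.44% wholly below. The number of calls leaned on single libraries: it was 791 without treated replicate 3 and 810 without treated replicate 4. It was 521 when only these 10 libraries were fitted. With 6 surrogate variables, which are hidden factors estimated from the data, 6 genes were called (Tef, Hlf, Ovca2, Per3, Synpo and Pptc7). Those 6 factors overlapped the groups, with up to 54.5% of a factor's variance lying between groups, and with 3 such factors 1849 genes were called.

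Total counts of the 10 libraries ran from 8636712 to 10430027, so 3 counts, the limit that a count of 0 allows, stood for at most 0.347 CPM (reads scaled to a common library total, the usual counts-per-million unit). Such limits cover counting error only. On the first principal component of the 1000 most variable genes, 22.91% of the variance, the controls lay between 8.42 and 12.53 and the treated libraries between -14.77 and -2.82. Treated replicate 5 was the nearest to the controls and stood apart from the other treated libraries on the second component, at 16.19. Control replicate 5 was the lowest on that component, at -16.9. Cortical markers were present at high level, with Slc17a7, the vesicular glutamate transporter of cortical excitatory neurons, at a mean of 1801 CPM in controls and 1882 in treated libraries. The striatal marker Drd2 was low, at 0.997 and 1.17 CPM. Other members of the striatal list were higher, such as Gnal at 182 and 146 CPM and Ppp1r1b at 48.9 and 68.0 CPM. The 14 tested members summed to 433 to 458 CPM in controls and 442 to 463 CPM in treated libraries. The share of striatal tissue was not tested.

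**Figure D1:**
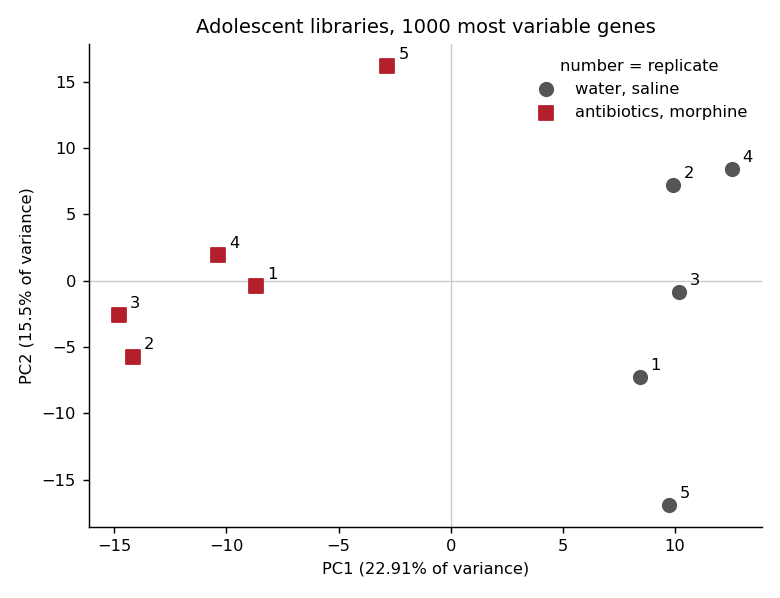
First and second principal components of the 10 libraries, from log2 CPM of the 1000 most variable genes, with the share of variance on each axis, circles for water and saline, squares for antibiotics and morphine, and numbers for replicates. All 5 treated libraries lie left of 0 on the first component and all 5 controls right of it, and treated replicate 5 lies at 16.19 on the second.

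Of the 35 gene lists examined, the circadian clock had the largest share of called members, 63.6% beside 6.94% of all genes tested. Of 22 members tested, 13 rose and 1 fell, with a median log2 fold change of 0.33. The period gene Per2, a repressor of the loop, was read at 36.8, 29.4, 30.6, 25.6 and 37.0 CPM in the controls and at 64.0, 67.5, 50.7, 60.3 and 55.2 CPM after antibiotics and morphine. The lowest treated library lay above the highest control. Its mean was 31.9 ± 4.93 CPM in controls and 59.5 ± 6.71 in treated libraries (SD, n = 5 each), a log2 fold change of 0.91 ± 0.15 (SE, edgeR adjusted p = 0.000281). Dbp, a transcription factor of the clock output whose locus overlaps Sphk2 on the other strand, ran from 62.3 to 94.0 CPM in controls and from 117 to 138 CPM in treated libraries. It rose by 0.64 ± 0.09 on the log2 scale (edgeR adjusted p = 5.11e-06). Tef and Hlf, the sister factors of Dbp, rose by 0.35 and 0.44 on the log2 scale, from means of 344 and 193 CPM to 438 and 261.

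Several other repressors of the loop rose too. Bhlhe41, which competes for E-boxes, was at 32, 37.4, 27.8, 36.6 and 36.4 CPM in controls and at 56.0, 57.8, 53.4, 57.5 and 43.0 CPM in treated libraries, and the groups did not overlap. Ciart, a repressor of CLOCK and BMAL1, rose from 12.9 ± 2.95 to 23.8 ± 5.47 CPM (SD, n = 5 each). In Ciart treated replicate 5, at 15.2 CPM, lay below the highest control, at 17.9 CPM. Cry1 rose by 0.71 ± 0.11 on the log2 scale, from 12.8 to 20.9 CPM, with no overlap between the groups. Per1, also a glucocorticoid target, rose from 109 to 169 CPM, and there treated replicate 5 (132 CPM) lay under control replicate 5 (144 CPM). Arntl, the activator whose transcript peaks in antiphase to the Per genes, was the member that fell: it ran from 31.6 to 36.4 CPM in controls and from 24.4 to 26.1 CPM in treated libraries, without overlap. Its log2 fold change was -0.375 ± 0.07 (edgeR adjusted p = 0.000616). Nr1d1, the repressor of Arntl, was not called (0.17 ± 0.06, adjusted p = 0.056), nor was Clock itself (-0.19, adjusted p = 0.0872). The list gave 13 or 14 higher calls without any single library of the comparison, and 3 (Tef, Hlf and Per3) with 6 surrogate variables.

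Promoters of 4 clock genes that rose are shown because they hold the E-box, the sequence CACGTG, through which CLOCK and BMAL1 act. Each runs from 250 bases before to 50 bases after a start site, 5′ to 3′ on the gene's strand, from RefSeq in build GRCm38.p6, with each E-box in capitals. They lie at chr6:145865371-145865670 (minus strand, Bhlhe41), chr15:81802423-81802722 (plus strand, Tef), chr3:95882179-95882478 (minus strand, Ciart) and chr10:85185005-85185304 (minus strand, Cry1).
Bhlhe41: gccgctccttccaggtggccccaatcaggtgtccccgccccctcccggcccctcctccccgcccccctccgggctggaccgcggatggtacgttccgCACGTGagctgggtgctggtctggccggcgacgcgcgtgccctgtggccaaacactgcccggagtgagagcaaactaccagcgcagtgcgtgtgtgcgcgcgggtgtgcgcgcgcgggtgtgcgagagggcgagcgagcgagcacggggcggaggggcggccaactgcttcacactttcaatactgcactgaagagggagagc
Tef: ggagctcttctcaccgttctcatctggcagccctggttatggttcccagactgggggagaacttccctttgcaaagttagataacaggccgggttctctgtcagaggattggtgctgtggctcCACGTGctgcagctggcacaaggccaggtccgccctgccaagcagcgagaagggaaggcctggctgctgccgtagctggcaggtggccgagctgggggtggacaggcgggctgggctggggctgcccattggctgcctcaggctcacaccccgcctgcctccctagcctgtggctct
Ciart: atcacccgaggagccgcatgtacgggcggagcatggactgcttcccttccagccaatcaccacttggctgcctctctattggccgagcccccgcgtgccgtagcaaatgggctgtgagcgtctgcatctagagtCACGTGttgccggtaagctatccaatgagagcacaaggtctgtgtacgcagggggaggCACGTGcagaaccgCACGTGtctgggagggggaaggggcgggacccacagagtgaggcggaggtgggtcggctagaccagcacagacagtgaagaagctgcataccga
Cry1: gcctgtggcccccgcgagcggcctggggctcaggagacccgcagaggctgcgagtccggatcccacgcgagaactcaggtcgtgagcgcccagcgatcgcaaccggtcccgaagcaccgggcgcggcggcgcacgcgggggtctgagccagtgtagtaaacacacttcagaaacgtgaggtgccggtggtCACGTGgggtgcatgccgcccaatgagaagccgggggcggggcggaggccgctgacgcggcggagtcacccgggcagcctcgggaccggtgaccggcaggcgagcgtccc
The E-box of Cry1 began 60 bases before its start site, and Ciart held 3, beginning 116, 58 and 44 bases before. Of the 13 clock genes called higher, 11 had a promoter in the table and 5 of these held an E-box, namely those shown and Per1. The 6 without an E-box in this window included Dbp and Hlf. Of all 22 list members, 18 had a promoter and 5 held an E-box. Over all tested genes, 12025 had a promoter and 11.1% of these genes held an E-box in any of their promoters. So did 12.8% of all genes called higher and 12% of those called lower, among those with a promoter. The D-box TTATGTAA, the sequence bound by Dbp, Tef and Hlf, was searched on both strands. It was found in 0.715% of all tested genes with a promoter and, among the 11 clock genes, in Per3. The E-box reads the same on both strands. A match describes letters and does not show a factor's binding.

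Immediate early genes were lower. Of 35 members tested, 16 fell and 0 rose, with a median log2 fold change of -0.37. The share called was 45.7%, beside 6.94% of all genes tested. Btg2, an antiproliferative gene induced by activity, was at 30.1, 34.1, 35.8, 44.2 and 46.4 CPM in controls and at 6.62, 8.64, 9.81, 9.82 and 14 CPM in treated libraries. The groups lay far apart, and its log2 fold change was -1.96 ± 0.19 (edgeR adjusted p = 4.4e-08). Ccn1, which encodes a secreted matrix protein, fell from between 8.10 and 20.2 CPM to between 1.73 and 2.68 CPM, a log2 fold change of -2.37 ± 0.26. Fos, the classic marker of recent neuronal firing, was at 45.2, 39.8, 47.1, 61.7 and 52.3 CPM in controls and at 14.7, 24.7, 15.6, 24.4 and 23.5 CPM in treated libraries. Every treated value was under every control value, and its log2 fold change was -1.26 ± 0.22 (edgeR adjusted p = 0.000507).

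The synaptic members Arc and Npas4 fell as well. Arc, whose product trims AMPA receptors from synapses, went from 268 ± 80.5 to 89.5 ± 21.7 CPM, and Npas4, a neuronal factor induced by calcium, from 69.3 ± 6.74 to 18.8 ± 9.19 CPM (SD, n = 5 each). Neither overlapped between groups, and the log2 fold changes were -1.58 ± 0.245 and -1.87 ± 0.345 (edgeR adjusted p = 8.15e-05 and 0.000739). Ier2, Gadd45g and the phosphatase gene Dusp1 fell by 1.19, 0.96 and 0.95 on the log2 scale. Egr1 did not pass the test: it ran from 293 to 359 CPM in controls and from 191 to 352 CPM in treated libraries, with treated replicate 5 the highest of its group. Jund, Fosl2 and Homer1, measured over all its isoforms, had log2 fold changes between -0.01 and 0.02. The list gave 13 to 17 lower calls without any single library of the comparison and 0 with 6 surrogate variables.

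**Figure D2:**
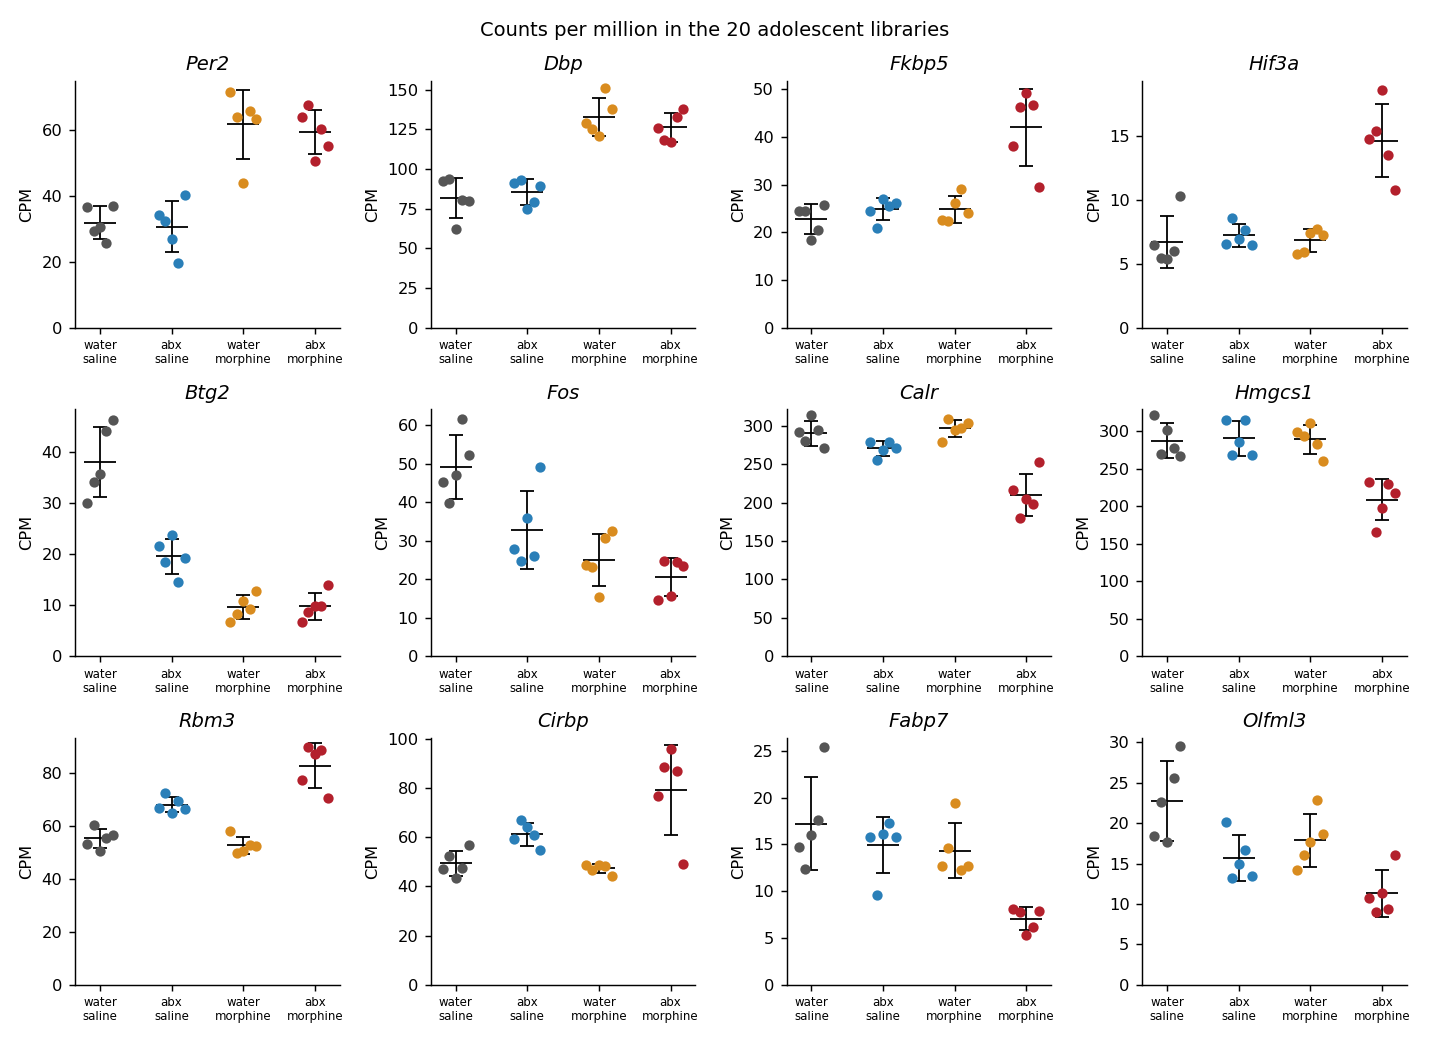
CPM of 12 genes in the 20 adolescent libraries, 5 for each of 4 groups, with a point per library, a horizontal bar for the group mean and whiskers of 1 SD, on axes that start at 0. In Per2 and Btg2 the libraries given morphine on water lie with those given both treatments. In Fkbp5, Calr and Hmgcs1 the libraries given both lie outside the range of the other 3 groups. The gap is narrow at treated replicate 5 in Fkbp5 (29.6 CPM, beside 29.1 with morphine on water) and Calr (253 CPM, beside 256 with antibiotics and saline).

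Secreted and synaptic genes that follow activity more slowly were mixed, with 5 of 15 lower and 1 higher. That is 40% called, beside 6.94% of all genes tested. Nptx2, a pentraxin that gathers AMPA receptors on inhibitory neurons, was at 73.1, 64.7, 90.2, 90.7 and 81.6 CPM in controls and at 48.9, 43.0, 58.9, 50.3 and 57.0 CPM in treated libraries, below all 15 other adolescent libraries. It fell by 0.63 on the log2 scale (SE 0.10, edgeR adjusted p = 2.84e-05). Inhba, a subunit of activin, fell by 0.935 (its locus has an antisense transcript) and Cort, the peptide cortistatin, by 0.67. Bdnf, the neurotrophin, fell from 32.6 ± 4.36 to 24.9 ± 3.27 CPM (SD, n = 5 each; log2 fold change -0.39 ± 0.11, edgeR adjusted p = 0.0197). That call was lost without treated replicate 2 or 3 or control replicate 3. The related pentraxin Nptx1 rose, from a mean of 332 to 407 CPM, and was not called without treated replicate 4. The count of lower members was 3 without treated replicate 2 and 3 when only the compared groups were fitted.

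Chaperones and folding enzymes of the endoplasmic reticulum were lower in 8 of 24 members and higher in 0, with a median log2 fold change of -0.21. The share called was 33.3%, beside 6.94% of all genes tested. Calr, the calcium-binding chaperone calreticulin, was at 292, 281, 315, 295 and 271 CPM in controls and at 217, 180, 205, 198 and 253 CPM in treated libraries. All 5 treated libraries lay below the 15 other adolescent libraries, with treated replicate 5 the nearest to them. Its log2 fold change was -0.46 ± 0.07 (edgeR adjusted p = 3.42e-06). Pdia6, a disulfide isomerase, fell from 79.9 ± 1.77 to 61.6 ± 7.01 CPM, and Hsp90b1, the HSP90 of this compartment, from 203 ± 19.6 to 161 ± 7.5 CPM (SD, n = 5 each). Hspa5, the central chaperone BiP, was at 178, 182, 211, 188 and 161 CPM in controls and at 154, 136, 145, 137 and 162 CPM in treated libraries. Its groups overlapped by 1 library on each side, and its log2 fold change was -0.32 ± 0.07 (edgeR adjusted p = 0.00399). Xbp1, Pdia3, Pdia4 and Hyou1 fell by 0.24 to 0.38 on the log2 scale. The stress factors Atf4 (-0.20) and Ddit3 (-0.31) were not called, and Dnajb9, Cnpy2 and Txndc5 had log2 fold changes between 0.00 and 0.01. Without treated replicate 5 the count was 11, and it was 4 when only the compared groups were fitted and 0 with 6 surrogate variables.

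Promoters of the 4 chaperone genes with the smallest p are shown because all of them hold the ERSE, the element through which ATF6 and XBP1 act, marked in capitals. They come from the same RefSeq windows, at chr8:84846882-84847181 (minus strand, Calr), chr12:17266339-17266638 (plus strand, Pdia6), chr10:86705395-86705694 (minus strand, Hsp90b1) and chr2:34771840-34772139 (plus strand, Hspa5).
Calr: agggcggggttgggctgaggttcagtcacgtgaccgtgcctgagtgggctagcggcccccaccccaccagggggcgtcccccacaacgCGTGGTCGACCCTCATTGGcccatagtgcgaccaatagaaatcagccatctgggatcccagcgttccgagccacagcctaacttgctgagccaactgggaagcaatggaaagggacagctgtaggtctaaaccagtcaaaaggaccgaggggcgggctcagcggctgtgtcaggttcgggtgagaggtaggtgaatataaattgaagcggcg
Pdia6: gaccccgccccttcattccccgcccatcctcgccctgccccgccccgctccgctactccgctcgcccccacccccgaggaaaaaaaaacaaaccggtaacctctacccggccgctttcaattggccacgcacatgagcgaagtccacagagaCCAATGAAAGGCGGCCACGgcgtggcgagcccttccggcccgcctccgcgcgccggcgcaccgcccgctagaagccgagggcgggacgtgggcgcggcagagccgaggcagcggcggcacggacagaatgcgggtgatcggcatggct
Hsp90b1: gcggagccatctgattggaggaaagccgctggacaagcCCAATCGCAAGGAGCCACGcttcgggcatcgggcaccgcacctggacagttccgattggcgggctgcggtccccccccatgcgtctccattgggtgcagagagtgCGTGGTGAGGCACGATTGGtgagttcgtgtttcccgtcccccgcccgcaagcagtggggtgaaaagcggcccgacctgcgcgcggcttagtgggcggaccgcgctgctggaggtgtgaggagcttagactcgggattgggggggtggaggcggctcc
Hspa5: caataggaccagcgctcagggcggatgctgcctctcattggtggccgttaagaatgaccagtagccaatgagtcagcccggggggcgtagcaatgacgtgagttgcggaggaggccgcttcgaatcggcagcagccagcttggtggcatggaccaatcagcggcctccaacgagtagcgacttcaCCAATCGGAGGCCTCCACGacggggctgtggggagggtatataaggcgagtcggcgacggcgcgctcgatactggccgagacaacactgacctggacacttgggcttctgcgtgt
Hsp90b1 held 2 copies. Among 12025 tested genes with a promoter, 19 held this element on either strand (0.158%), and 4 of these genes were called lower and 0 higher. Of the 8 chaperone genes called lower, 7 had a promoter in the table and 4 held it, and of all 24 list members 20 had a promoter and 7 held it. The element's last bases can overlap an E-box.

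Cytosolic and mitochondrial heat shock genes were lower in 5 of 26 members and higher in 0, with a median log2 fold change of -0.13. The share called was 19.2%, beside 6.94% of all genes tested. Dnajb5, a neuronal HSP40, fell from between 131 and 162 CPM to between 96.0 and 118 CPM (log2 fold change -0.37 ± 0.07, edgeR adjusted p = 0.000685). Hsph1 and Chordc1, partners of HSP70 and HSP90, had log2 fold changes of -0.44 and -0.51, with overlap between groups in both. In Chordc1 the treated libraries were at 48.4, 40.6, 33.4, 35.4 and 62.0 CPM and the controls between 55.2 and 69.7 CPM, so the overlap rested on treated replicate 5. Hspa8, the constitutive HSP70, fell by 0.25, a call lost without treated replicate 2 or control replicate 3. Hsp90aa1 and Hsp90ab1 had log2 fold changes of -0.04 and -0.00. The count was 3 without treated replicate 2 or control replicate 3, 9 without treated replicate 5, and 1 when only the compared groups were fitted. With 6 surrogate variables it was 0, and the log2 fold changes of Dnajb5 and Chordc1 turned positive (0.0305 and 0.156).

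Sterol synthesis genes were lower in 10 of 29 members and higher in 2, with a median log2 fold change of -0.18. The share called was 41.4%, beside 6.94% of all genes tested. Stard4, a carrier of cholesterol within the cell, was at 36.9, 32.5, 36.6, 30.6 and 31.1 CPM in controls and at 23.5, 20.8, 19.6, 23.2 and 23.8 CPM in treated libraries. Treated values were below those of all 15 other adolescent libraries, and the log2 fold change was -0.59 ± 0.10 (edgeR adjusted p = 8.7e-05). Hmgcs1, which makes the precursor of mevalonate, went from 287 ± 23.3 to 208 ± 27.5 CPM (SD, n = 5 each; log2 fold change -0.46 ± 0.08, edgeR adjusted p = 0.000253). It too lay below every other adolescent library in all 5 treated libraries, as did the sterol demethylation enzymes Msmo1 and Cyp51, which fell by 0.46 and 0.34 on the log2 scale. Srebf2, which encodes SREBP2, fell by 0.20. The members that rose were Srebf1, which encodes the regulator of fatty acid synthesis, from 42.0 to 54.0 CPM, and Lss, lanosterol synthase, from 31.5 to 38.2 CPM. Insig1 (-0.15) and Fasn (-0.05) were not called. Without single libraries the lower count ran from 7 to 13, the highest without treated replicate 5, and it was 0 with 6 surrogate variables.

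Of 26 genes that respond to glucocorticoids, 8 rose and 2 fell, with a median log2 fold change of 0.23. The share called was 38.5%, beside 6.94% of all genes tested. Fkbp5, the co-chaperone that dampens the glucocorticoid receptor, was at 24.5, 24.4, 18.4, 20.5 and 25.8 CPM in controls and at 38.2, 46.3, 49.3, 46.8 and 29.6 CPM in treated libraries. All 5 treated libraries lay above the 15 other adolescent libraries, the nearest being treated replicate 5. The log2 fold change was 0.89 ± 0.11 (edgeR adjusted p = 5.07e-07). Hif3a, a hypoxia-inducible factor subunit, rose from 6.72 ± 2.06 to 14.6 ± 2.82 CPM (SD, n = 5 each; log2 fold change 1.12 ± 0.20, edgeR adjusted p = 0.000306). Its nearest values were 10.3 CPM in control replicate 5 and 10.8 CPM in treated replicate 5. Per1, Bcl6, Tsc22d3, Klf9, Nr3c2 and Zbtb16 also rose, by 0.27 to 0.64 on the log2 scale. Tsc22d3, known as GILZ, went from 41.1 ± 6.33 to 53.6 ± 3.58 CPM. The members that fell were Dusp1, which is also an immediate early gene, and Cdkn1a, an inhibitor of cyclin-dependent kinases, from 33.1 to 21.1 CPM. Sgk1 (0.33, adjusted p = 0.0863) and the receptor gene Nr3c1 (-0.00) were not called. The higher count ran from 7 to 9 without single libraries and was 0 with 6 surrogate variables.

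The RNA-binding protein genes Rbm3 and Cirbp, which are induced by cooling, rose together. They are 2 of 4 members of their list (50%, beside 6.94% of all genes tested). Rbm3 was at 53.1, 60.5, 50.7, 55.4 and 56.8 CPM in controls and at 77.3, 90.1, 87.1, 88.9 and 70.8 CPM in treated libraries, without overlap. Its log2 fold change was 0.58 ± 0.08 (edgeR adjusted p = 6.63e-07). The antisense transcript Rbm3os over the same locus rose by 0.85 ± 0.105, and without a stated strand setting, reads of the pair cannot be told apart. Cirbp was at 77.0, 88.7, 95.9 and 86.9 CPM in treated replicates 1 to 4 and at 49.0 CPM in treated replicate 5, where the controls ran from 43.4 to 56.8 CPM. The rise of Cirbp (0.69 ± 0.10, edgeR adjusted p = 5.11e-06) thus came from 4 of the 5 treated libraries.

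**Figure D3:**
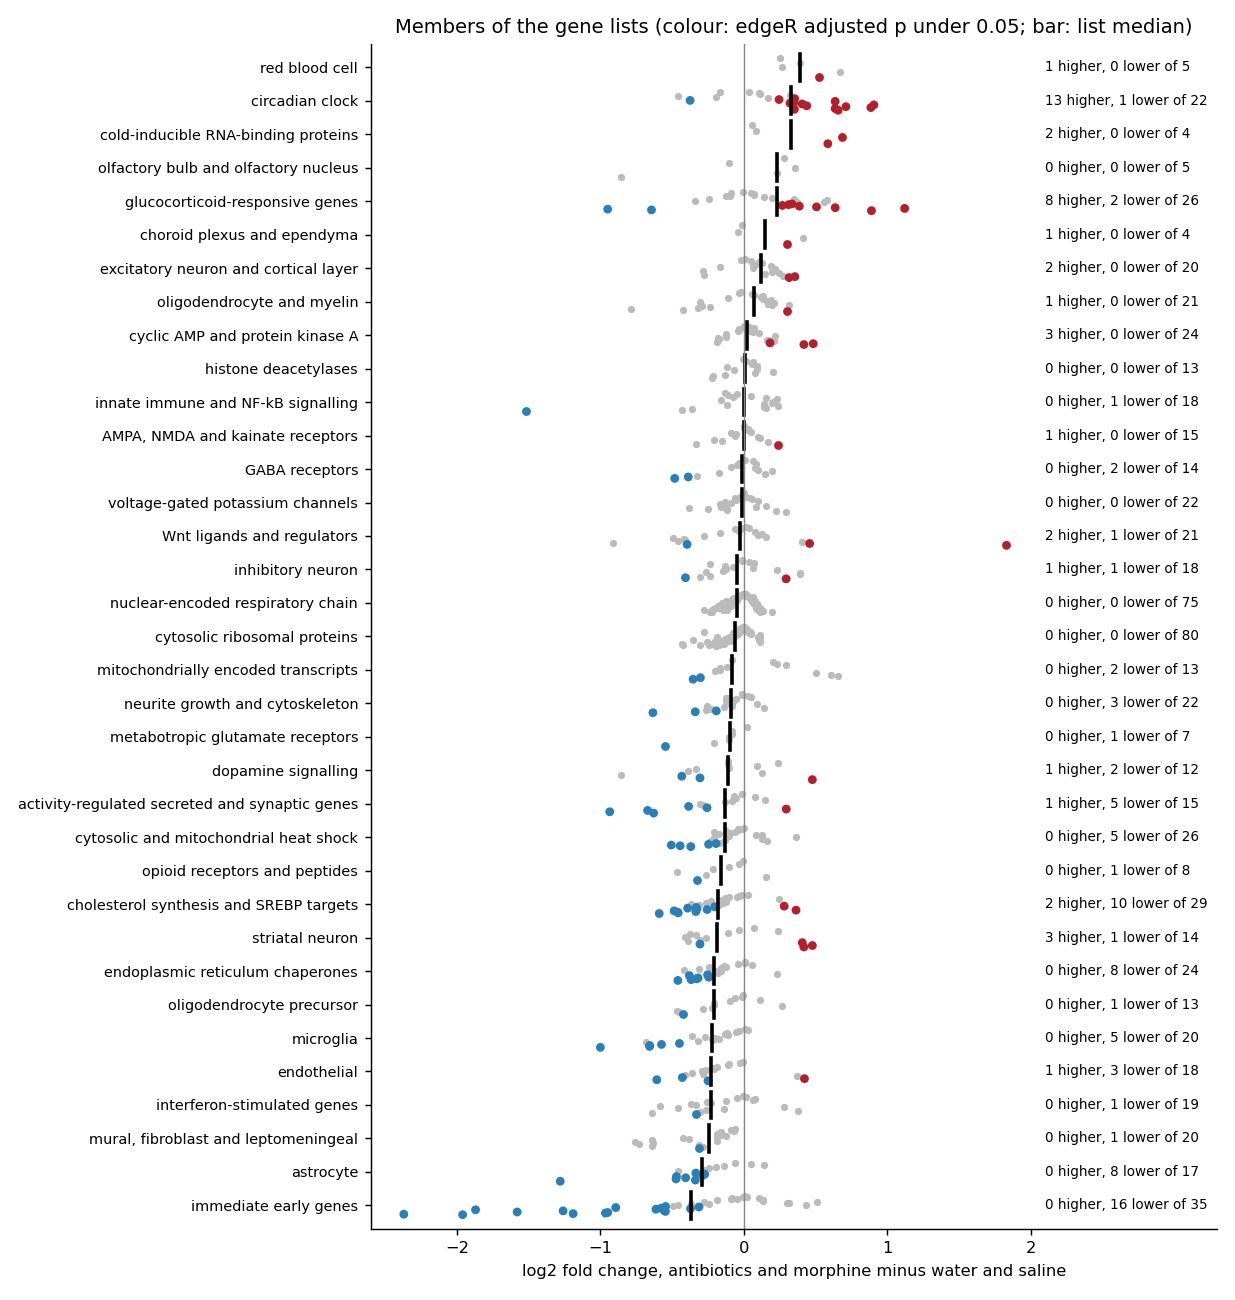
Log2 fold changes of antibiotics and morphine minus water and saline for all tested members of 35 gene lists, ordered by median, with called members in red (higher) or blue (lower), other members in grey and a black bar at the median. Immediate early genes have the lowest median, -0.37, with 16 called lower of 35, and the clock has 13 called higher of 22. Over all genes tested 6.94% were called.

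Several astrocyte, microglial and vascular markers were lower, and in bulk tissue fewer cells of a type and less RNA per cell cannot be told apart. Astrocyte markers were lower in 8 of 17 members and higher in 0, with a median log2 fold change of -0.29. The share called was 47.1%, beside 6.94% of all genes tested. Fabp7, a fatty acid carrier of astrocytes and their progenitors, was at 14.7, 12.4, 16.0, 17.6 and 25.4 CPM in controls and at 8.05, 7.77, 5.32, 6.15 and 7.93 CPM in treated libraries, below all 15 other adolescent libraries. It fell by 1.28 on the log2 scale (SE 0.16, edgeR adjusted p = 4.88e-07). Other astrocyte members moved less: Sox9, a glial transcription factor, fell by 0.47, the water channel Aqp4 by 0.47 and the glutamate transporter Slc1a2 by 0.29. The astrocyte count was 4 without control replicate 5, and 5 without control replicate 2 or 4 or treated replicate 1, 3 or 4. Control replicate 5 had the highest astrocyte level of the controls. The markers summed to 7190 CPM there and to between 4739 and 6459 CPM in the other 4 controls. In treated libraries they summed to 4284 to 5465 CPM. The sums were similar in the adolescents given 1 treatment, 4513 to 5152 CPM with antibiotics alone and 4778 to 5470 CPM with morphine alone.

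Microglial markers were lower in 5 of 20 members and higher in 0 (median -0.22), 25% called beside 6.94% of all genes tested. Olfml3, an extracellular protein of microglia, fell from 22.8 ± 4.95 to 11.3 ± 2.85 CPM (SD, n = 5 each), and its treated values, 8.96 to 16.1 CPM, did not reach the lowest control, 17.7 CPM. Its log2 fold change was -1 ± 0.16 (edgeR adjusted p = 4.43e-05). The receptor genes P2ry13, which is purinergic, and Gpr34 fell by 0.57 and 0.66, Fcrls by 0.66 and the complement gene C1qa by 0.45. Tmem119 (-0.27), Cx3cr1 (-0.32) and P2ry12 (-0.21), which define the cell type, were not called. Summed microglial markers were 529 to 826 CPM in controls, the highest in control replicate 5, and 474 to 598 CPM in treated libraries. They were 528 to 594 CPM with antibiotics alone and 526 to 631 CPM with morphine alone.

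Of 18 endothelial markers, 3 fell and 1 rose, and 16 of 18 had negative log2 fold changes (median -0.23). The share called was 22.2%, beside 6.94% of all genes tested. Over all genes tested 48.6% of log2 fold changes were positive. Cldn5, the tight junction protein of brain endothelium, fell from 45.6 ± 8.79 to 29.9 ± 3.89 CPM (SD, n = 5 each), and Bsg, a surface glycoprotein of brain vessels, by 0.25 on the log2 scale. Tek, the angiopoietin receptor, fell by 0.43, a call lost without treated replicate 1 or 4 or control replicate 4 or 5. The marker that rose was Slc2a1, the glucose transporter of the blood-brain barrier, from 82.5 ± 18.7 to 110 ± 8.36 CPM. With only the compared groups fitted, 2 endothelial markers were called lower and 0 higher. All 20 mural, fibroblast and leptomeningeal markers had negative log2 fold changes (median -0.24), of which Col4a1 was called (5%, under the 6.94% of all genes tested). Its call was lost in 7 of the 10 fits without 1 library (treated replicates 3, 4 and 5 and control replicates 1, 2, 4 and 5) and with only the compared groups fitted. Their summed level was 426 to 597 CPM in 4 controls and 818 CPM in control replicate 5, against 403 to 508 CPM in treated libraries. With antibiotics alone it was 453 to 745 CPM and with morphine alone 451 to 716 CPM. Oligodendrocyte markers had a median of 0.07 with 1 of 21 called (4.8%, also under that share). Mbp, the myelin basic protein gene, was at 701 ± 152 and 733 ± 132 CPM (log2 fold change 0.07 ± 0.16, edgeR adjusted p = 0.858). Excitatory neuron markers had a median of 0.12, with Neurod2 and Pou3f1 of 20 called higher (10%), the second not without control replicate 5. The excitatory markers summed to 2964 to 3448 CPM in controls and 3356 to 3601 CPM in treated libraries. Inhibitory neuron markers had a median of -0.05, with Vip called higher and Npy called lower of 18 (11.1%). The call of Vip was lost without treated replicate 1 or 2 or control replicate 1 or 5, and that of Npy in 8 of the 10 fits without 1 library, all but those without treated replicate 5 or control replicate 3. Of the red blood cell genes, Hba-a1 rose (0.52 ± 0.14, edgeR adjusted p = 0.0137), a call lost without treated replicate 1. The other 4 were not called (20% called). The part of these marker levels in the differences of the other gene groups was not tested.

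**Figure D4:**
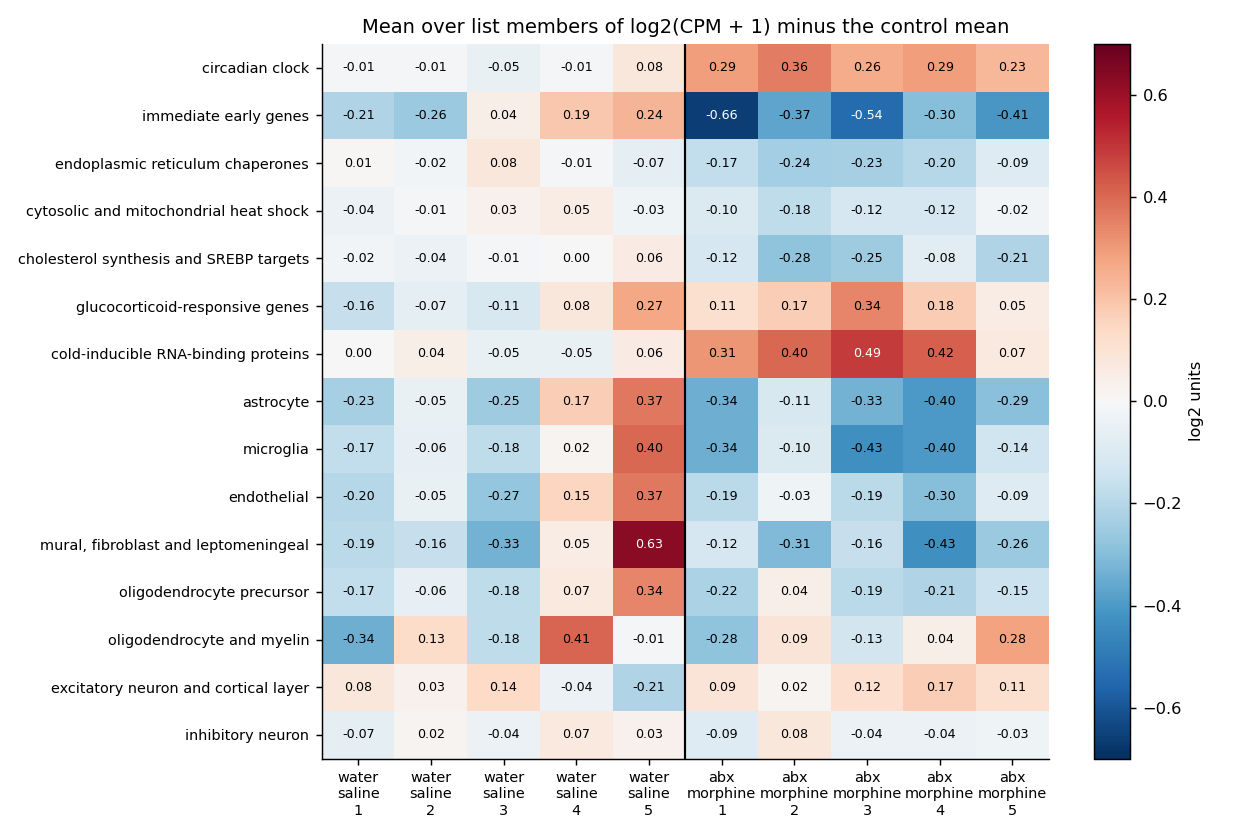
Mean over the members of each of 15 lists of log2(CPM + 1) minus the mean of the 5 controls, for each of the 10 libraries, with red for higher and blue for lower. The clock row is 0.23 to 0.36 in every treated library, the cold-inducible row falls to 0.07 in treated replicate 5, and control replicate 5 has the highest astrocyte, microglial, precursor and vascular values, up to 0.63, while control replicate 4 is the highest for myelin, at 0.41.

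Of the opioid receptor and peptide genes 1 of 8 was called (12.5%), and of the dopamine signalling genes 3 of 12 (25%), beside 6.94% of all genes tested. Oprm1, the receptor on which morphine acts, was at 3.59, 4.35, 5.68, 3.31 and 2.66 CPM in controls and at 3.55, 3.35, 3.13, 3.67 and 3.13 CPM in treated libraries. Its groups overlapped, and its log2 fold change was not called (-0.215 ± 0.222, edgeR adjusted p = 0.63), nor was that of the enkephalin precursor Penk (38.8 ± 8.81 and 32.2 ± 2.13 CPM, adjusted p = 0.308). Oprd1, the delta receptor, was the opioid gene called (36.1 to 28.8 CPM, adjusted p = 0.0248), a call lost without treated replicate 1, 2 or 3 or control replicate 3. Ppp1r1b, which encodes the phosphatase inhibitor DARPP-32, rose from 48.9 ± 5.77 to 68.0 ± 3.99 CPM (SD, n = 5 each). Gnal, which encodes a stimulatory G protein subunit, fell from 182 ± 6.84 to 146 ± 5.82 CPM. Maob, which breaks down monoamines, fell by 0.43 on the log2 scale. Of 24 cyclic AMP genes, 3 rose (12.5%): the adenylyl cyclase Adcy9 by 0.48 and the phosphodiesterases Pde10a and Pde1b by 0.42 and 0.18. The call of Pde1b was lost without treated replicate 3 or control replicate 3 or 5.

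GABA receptor genes were called lower in 2 of 14 (14.3%, beside 6.94% of all genes tested), Gabra2 from between 55.7 and 64.4 CPM to between 35.9 and 47.3 CPM and Gabrg1, by 0.39, lost without treated replicate 3 or 4 or control replicate 4. Of 15 AMPA, NMDA and kainate receptor genes 1 was called (6.7%): Grin1, the obligatory NMDA subunit, rose by 0.24 from 683 to 804 CPM, and treated replicate 5, at 683 CPM, lay among the controls. Grm3, a metabotropic receptor shared by astrocytes and neurons, fell from between 64.9 and 77.5 CPM to between 45.1 and 58.1 CPM. None of 22 voltage-gated potassium channel genes was called by edgeR (5 at an unadjusted p under 0.05, 2 called by DESeq2), and none of 13 histone deacetylases (2 at an unadjusted p under 0.05, 0 called by DESeq2). Of 21 Wnt genes, 2 were called higher and 1 lower (14.3%, beside 6.94% of all genes tested). Wnt7b fell from a mean of 71.4 to 54.0 CPM, a call lost without treated replicate 2 or 3 or control replicate 1 or 3. Wnt5a rose from 9.39 to 12.9 CPM, a call lost in 7 of the 10 fits without 1 library. Wnt10b, a ligand of the canonical pathway, stood out in size. It was at 4.17, 1.30, 1.16, 2.48 and 2.23 CPM in controls and at 6.52, 12.5, 9.19, 9.42 and 2.61 CPM in treated libraries (log2 fold change 1.83 ± 0.28, edgeR adjusted p = 2.34e-05). Treated replicate 5 lay among the controls, and the other 4 above them.

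Among the 20 genes with the smallest p that the naming rule took, several belonged to none of the lists. Ankrd33b, an ankyrin repeat gene, was at 108, 113, 108, 120 and 110 CPM in controls and at 164, 166, 181, 167 and 160 CPM in treated libraries, with a log2 fold change of 0.59 ± 0.07 (edgeR adjusted p = 1.19e-07). The groups did not overlap. Klhl40, a kelch family gene that overlaps an antisense transcript, rose from 5.52 ± 0.794 to 12.5 ± 2.41 CPM, and Camkk1, a kinase upstream of CaMKI and CaMKIV, from 115 ± 3.62 to 157 ± 21.3 CPM (SD, n = 5 each). Strn4, a striatin whose counts are uncertain without a stated strand setting, rose by 0.37, and Mir9-3hg, the host transcript of a neural microRNA, by 0.63. Akt2, a kinase of insulin signalling, was at 113, 131, 118, 144 and 150 CPM in controls and at 82.1, 82.2, 81.3, 71.2 and 93.5 CPM in treated libraries, below all 15 other adolescent libraries (log2 fold change -0.67 ± 0.07, edgeR adjusted p = 3.34e-08). Zfp950, a zinc finger gene within Grk5 on the other strand, fell from 31.7 ± 5.02 to 17.9 ± 2.73 CPM, Mettl16, an RNA methyltransferase, from 27.2 ± 3.12 to 16.5 ± 1.66 CPM, and Exd2, a nuclease, by 0.50 on the log2 scale. Ovca2, which shares its locus with Dph1 so that reads of the pair may be split, fell by 1.21.

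The same comparison in adults, which shares no library with the adolescent one, called 212 genes (1.19% of genes tested), 116 higher and 96 lower. Of these, 137 were also called in adolescents, 75 higher and 62 lower at both ages and 0 in opposite directions, which is 64.6% of the adult calls and 11% of the adolescent calls. Of the 1240 genes called in adolescents, 91.1% had the same sign in adults, beside 65.8% over all genes tested. The median adult log2 fold change was 0.15 for genes higher in adolescents and -0.17 for genes lower in adolescents. In adults the clock list had 11 members higher and 1 lower of 22, and immediate early genes 19 lower of 35. Per2 was at 41.8 ± 9.98 and 67.2 ± 2.54 CPM in adults, Fos at 40.9 ± 9.13 and 17.7 ± 3.01 CPM, and Fkbp5 at 22.9 ± 2.67 and 38.1 ± 6.15 CPM (SD, n = 5 each). Chaperones of the endoplasmic reticulum gave 1 call in adults (Calr, -0.335 ± 0.07) and astrocyte markers 1 (Fabp7, -1.01). Of 29 sterol genes edgeR called 0 in adults, with 8 at an unadjusted p under 0.05, 2 called by DESeq2 and 4 by limma-voom.

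The difference between the ages was tested directly, and edgeR called 0 genes (0.0%), with 1106 at an unadjusted p under 0.05. DESeq2 and limma-voom also called 0, and edgeR called 5 without a filter on low counts. A larger number of calls in adolescents therefore does not show that a gene differed between ages. The 4 genes with the smallest p for that difference are given as values. Eno1b, an enolase copy that can share reads with Eno1, had a log2 fold change of 1.05 in adolescents and -0.31 in adults, and Gprin1, a neurite protein, 0.37 and -0.03. Zfp950 had -0.82 and -0.215, and Nek1, a kinase of cilia, -0.505 and -0.01. For Stard4 the values were -0.59 in adolescents and -0.15 in adults, and for Cirbp 0.69 and 0.29. Neither gene was among those 4, and neither age difference was called (edgeR adjusted p = 0.649 and 0.714).

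**Figure D5:**
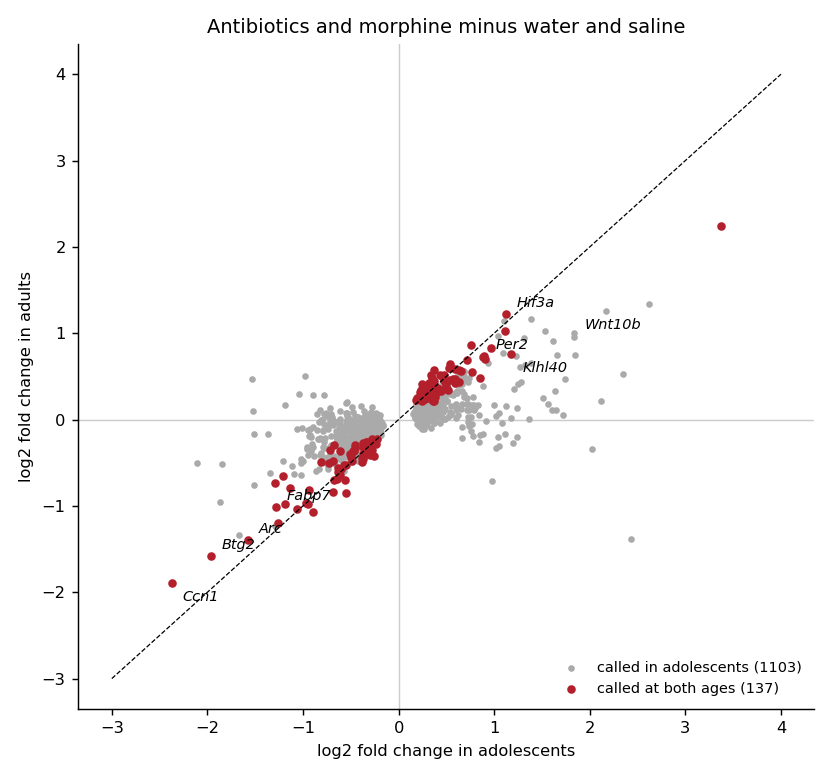
Log2 fold change of antibiotics and morphine minus water and saline in adults (vertical) against adolescents (horizontal) for the 1240 genes called in adolescents, with 137 called at both ages in red and the other 1103 in grey, and a dashed line of equal values. Called genes keep their sign at both ages in 1130 of 1240 cases, and no red point lies in an opposite quadrant.

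In adolescents the antibiotics with saline and the morphine on water groups were each measured too, and their comparisons share the control libraries of the combined one. Their values for single genes are therefore given side by side and not compared. For Per2 the log2 fold change was -0.06 with antibiotics alone, 0.98 with morphine alone and 0.91 with both, and for Dbp 0.05, 0.72 and 0.64. Btg2 had -0.97, -1.99 and -1.96. Rbm3 had 0.29, -0.05 and 0.58, and Akt2 -0.29, -0.27 and -0.67. For Fkbp5 the values were 0.12, 0.14 and 0.89, for Hif3a 0.10, 0.04 and 1.12, for Calr -0.11, 0.05 and -0.46, for Hmgcs1 0.01, 0.03 and -0.46, and for Stard4 0.00, 0.02 and -0.59.

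Whether the combined difference departed from the sum of the single ones on the log2 scale was tested with all 4 adolescent groups. The test called 221 genes (1.24% of genes tested), 111 above the sum and 110 below it. The count was 489 with limma-voom and 457 with DESeq2, but 23 with 3 surrogate variables and 0 with 6, so none of the departures named here was called in that last fit. Of the 221 genes, 68 were also called between the combined and control groups and 153 were not. Bdnf had the smallest p: 30.9, 26.9, 39.0, 33.2 and 33.2 CPM in controls, 37.8 to 41.4 CPM with antibiotics alone, 33.2 to 44.3 CPM with morphine alone, and 25.9, 20.1, 23.2, 28.2 and 27.1 CPM with both. Its level was thus above the control mean with either treatment and below it with both, a departure of -0.93 ± 0.15 (edgeR adjusted p = 0.00166). Fkbp5 departed by 0.62 ± 0.16 (adjusted p = 0.0395), Calr by -0.40 ± 0.09 (0.0296), Hspa5 by -0.53 ± 0.10 (0.0103), Stard4 by -0.61 ± 0.14 (0.0295) and Hmgcs1 by -0.50 ± 0.115 (0.0302). By list, 5 of 24 chaperones of the endoplasmic reticulum, 5 of 29 sterol genes and 4 of 26 heat shock genes were called. Per2 gave -0.01 ± 0.22 (adjusted p = 0.987). The other named departures were Fam214a (0.58), Crtc3, a CREB coactivator (0.74), Rere (0.38) and Arhgef10l (0.53) above the sum, and Tceal9 (-0.52), the growth factor response gene Klf10 (-0.715) and the mTOR activator Rheb (-0.53) below it. The number of calls depended on single libraries more than that of the combined difference. It was 19, 48 and 130 without combined replicates 2, 3 and 4, 773 without combined replicate 5, 31 and 28 without antibiotics-only replicates 3 and 4, 38 and 66 without morphine-only replicates 2 and 3, and 334 and 28 without control replicates 3 and 5.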

How the data were processed

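Polyadenylated RNA was sequenced in 40 libraries, 5 for each of 8 groups, and groups were taken from the sample labels. The deposited table holds raw read counts per gene, with 56980 rows named by Ensembl IDs, of which 52073 (91.4%) matched a gene symbol. STAR 2.7.10a, DESeq2 and build mm10 are named in the submitters' processing notes, with no role given, and neither the annotation nor the strand setting is stated. Named genes given above without this limit also overlap a gene on the other strand, among them Bhlhe41, Tef, Ciart, Fkbp5, Hif3a, Pdia6, Cyp51, Dusp1, Grin1 and Ppp1r1b. Their counts carry the same uncertainty. Total counts ran from 8636712 to 12098769 per library.

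Counts were scaled by TMM and tested with edgeR 4.0.16 (quasi-likelihood, robust, in R 4.3.3) in one fit of all 8 groups. The low-count filter of edgeR (minimum count 10, minimum total 15) kept 17880 genes, over which p-values were adjusted by Benjamini-Hochberg, and a call is an adjusted p under 0.05. The biological coefficient of variation was 9.14%. CPM are counts scaled by the library total. Standard errors are the log2 fold change divided by the square root of F. The scripts were tested on simulated data. Alternatives were RLE scaling, other filters, limma-voom 3.58.1 with sample weights, DESeq2 1.42.0, a fit of the compared groups alone, a replicate block, each library left out, surrogate variables (sva 3.50.0) and, added after seeing the data, 3 surrogate variables and an offset for GC content and length.

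The comparison and the gene lists were chosen with earlier results of these data known. The genes named are the 10 higher and 10 lower calls with the smallest p (mean of at least 1 CPM), up to 4 called members per list or the smallest p where none was called, 9 fixed genes (Oprm1, Penk, Fos, Fkbp5, Bdnf, Mbp, Dbp, Per2 and Hspa5), and up to 4 genes each way for the age difference and the departure. List members named beyond this, such as Hlf, Cry1, Per1, Arntl, Arc, Npas4, Egr1, Xbp1, Srebf1, Tsc22d3, Aqp4 and C1qa, and Synpo and Pptc7, were chosen after their values were seen. Promoter windows came from RefSeq tables of GRCm38.p6, which matched 12025 of 17873 tested genes with a symbol. Some items are not reported here.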

Additional observations from a re-analysis of the deposited data

Results flagged for a closer look

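Libraries that stood apart within their group of 5 by Dixon's test at the 95% level were found in 12 of 210 groups tested (105 named genes in 2 groups of libraries). Chance alone marks about 1 in 20 independent groups, which is 10.5 of 210. These groups share the same libraries, and many of the genes were named for a small p. The total therefore cannot settle whether chance marked them. Treated replicate 5 was the one that stood apart for Strn4 (290 CPM), Inhba (11.4 CPM), Grin1 (683 CPM), Grm3 (58.1 CPM) and Bsg (347 CPM), in each case on the side of the controls. Treated replicate 4 stood apart for Nptx1, at 476 CPM. Control replicate 5 did so for Dnajb5 (162 CPM), Hif3a (10.3 CPM), Adcy9 (48.4 CPM) and Hdac5 (227 CPM), control replicate 3 for Inhba (18.6 CPM) and control replicate 4 for Sox4 (48.4 CPM).

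For 24 named genes the effect of morphine on antibiotics differed from that on water in adolescents, by edgeR's test of the difference itself. The values are the first effect minus the second, on the log2 scale. Among genes called higher after both treatments it was above 0: 0.622 for Fkbp5, 0.481 for Mir9-3hg, 1.75 for Wnt10b, 0.577 for Fam214a, 0.379 for Rere and 0.525 for Arhgef10l. Among those called lower it was below 0 for the chaperones Calr (-0.403), Pdia6 (-0.467), Hsp90b1 (-0.339), Hspa5 (-0.527), Dnajb5 (-0.403) and Hsph1 (-0.527) and for the sterol genes Stard4 (-0.611), Hmgcs1 (-0.496) and Msmo1 (-0.494). It was also below 0 for Fabp7 (-0.824), Nptx2 (-0.53), Gabra2 (-0.373) and Bdnf (-0.931), and above 0 for Ovca2 (0.843), which was called lower. Crtc3 (0.743), Tceal9 (-0.523), Klf10 (-0.715) and Rheb (-0.527) were not called between the combined and control groups.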

How the results depend on the processing

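The count of 1240 genes in adolescents was 521 with only the compared groups, 6 with 6 surrogate variables, and 791 to 1822 with a library left out (1822 without treated replicate 5). Other settings gave 1187 to 1849. The adult count of 212 was 340 without a filter, 554 with limma-voom, 370 with DESeq2, 458 with only the compared groups, 67 with 6 and 529 with 3 surrogate variables, and 116 to 254 with a library left out, 116 without treated replicate 5 and 120 without control replicate 2. The age difference gave 5 calls without a filter and 1 with only the compared groups. The departure count of 221 was 485 without a filter, 489 with limma-voom, 457 with DESeq2, 0 with 6 and 23 with 3 surrogate variables, and 19 to 773 with a library left out. The causes were not tested, other than that fewer libraries enter some fits.

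Replicate numbers are shared between groups, but the deviations of same-numbered combined and control libraries had correlations from -0.158 to 0.045, so the numbers were not taken as pairs. With a replicate block the counts were 1270 in adolescents, 228 in adults, 0 for the age difference and 232 for the departure.

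Of 87 named genes called in adolescents, 58 were called in all 18 settings without surrogate variables, 22 were not called with only the compared groups, and 76 were not with 6 surrogate variables. Leaving out a library ended 2 to 13 of these calls. Signs turned with 6 surrogate variables for 9 of the called genes: Pdia6 (0.0124), Dnajb5 (0.0305), Chordc1 (0.156), Cirbp (-0.0763), Oprd1 (0.168), Maob (0.00433), Grin1 (-0.0314), Fcrls (0.244) and P2ry13 (0.155). In that fit the sign also turned for Hdac5 (0.0836), which was not called. For Mbp, also not called, it turned without treated replicate 5 (-0.04) or control replicate 1 (-0.0311), within a range up to 0.19. Depth limits values under 0.347 CPM, the level of 3 counts in the smallest library.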

Other observations

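The shares below stand beside 6.94% of all genes tested. Of 22 neurite growth and cytoskeleton genes, 3 were called lower (13.6%), among them Tubb2b, a tubulin of growing neurons, from a mean of 75.0 to 48.2 CPM (log2 fold change -0.63, edgeR adjusted p = 0.000277). Of 19 interferon-stimulated genes, 1 was called (5.3%), B2m, which was lower (-0.33), a call lost without control replicate 5, and of 18 innate immune genes also 1 (5.6%), Tlr2 (-1.52), a call lost without treated replicate 3. Of 14 striatal neuron markers, 3 were higher and 1 lower (28.6%), while their summed level was 433 to 458 CPM in controls and 442 to 463 CPM in treated libraries. Cytosolic ribosomal protein genes had a median log2 fold change of -0.06 over 80 members, with 10 at an unadjusted p under 0.05 and none called by edgeR. Genes in the lowest GC content quartile (1 of 4) were called lower more often than higher, 211 against 90 (median log2 fold change -0.031). In the second quartile 141 were lower and 109 higher, and in the upper quartiles the order was the other way, 202 higher against 156 lower in quartile 3 and 187 against 129 in quartile 4. With an offset for GC content and length 1441 genes were called, 794 higher and 647 lower.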
